A study of Mus musculus with 14 samples.

Results

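The genes described here are 10 transcription factors and cofactors of hematopoietic stem cell self-renewal: Mecom, Hlf, Meis1, Gata2, Tal1, Lyl1, Prdm16, Erg, Fli1 and Lmo2. They were taken by name from a table of 24833 genes, with earlier results of these data known. All 10 were found in the table, and all 10 were among the 15466 genes that passed the filter on low counts. RNA was sequenced from sorted stem cells of C57BL/6 mouse bone marrow, by the SLAM scheme (Lin-, Sca-1+, Kit+, Flk2-, CD48-, CD150+). Mice received interleukin-1β (IL-1β), an inflammatory cytokine, by intraperitoneal injection at 0.5 µg per mouse and day, or phosphate-buffered saline (PBS). The 4 groups were IL-1β for 1 day (3 libraries), PBS for 1 day (3), IL-1β for 20 days (4) and PBS for 20 days (4). All mice were injected, so there is no uninjected group, and each library comes from cells pooled over 3 to 5 mice.

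In hematopoietic stem cells, GATA2, the helix-loop-helix factors TAL1 and LYL1, the bridging protein LMO2 and the ETS factors ERG and FLI1 are known to bind many of the same enhancers, including enhancers of their own genes. MECOM and PRDM16 are related zinc finger proteins with PR domains. MEIS1 is a homeodomain partner of HOX proteins, and HLF is a basic leucine zipper factor of the PAR family. Loss of most of these genes in mice reduces or exhausts the stem cell pool, and several are rearranged or overexpressed in leukemia.

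Library totals ran from 21654896 to 29441947 counts. The least counted member in any library was Lyl1 with 540 counts, and the most counted was Lmo2 with 30607, so counting error was small beside the differences between libraries. The library titles fall into 4 naming sets of unstated meaning, and each set holds as many IL-1β as PBS libraries. At 1 day replicates 1 and 2 carry the tag "E060216" and replicate 3 the tag "10k". At 20 days replicates 1 and 2 carry the tag "E061316", and replicates 3 and 4 carry none and are called untagged. The genes of the sort were present as the gate asks for Kit (586 to 1663 CPM, counts scaled to a common library total) and Slamf1, which encodes CD150 (39.4 to 116 CPM). Flt3, which encodes Flk2, was still detected at 40.7 to 139 CPM, and Cd48 at 2.78 to 10.2 CPM, and some of these genes differed between the groups, as given beside the Gata2 results. Endothelial cells also use Gata2, Tal1, Lyl1, Lmo2, Erg and Fli1. The sum of 9 endothelial genes was 205 to 216 CPM with IL-1β and 285 to 321 CPM with PBS at 1 day, and 209.98 to 278 CPM with IL-1β and 297 to 341 CPM with PBS at 20 days. Most of it was Tie1 (197 to 307 CPM), a receptor gene that stem cells are known to express too, while Cdh5, a defining endothelial gene, was at no more than 0.251 CPM in any library. The summed level of 10 neutrophil genes was 2419 CPM in IL-1β 20-day replicate 3 and 1.99 to 14.9 CPM in the other 13 libraries.

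A set of 3 libraries stood apart in a way that touches several members. The measure was the median deviation of long genes minus that of short genes (the 1222 genes with the most exon bases and the 1222 with the fewest, on the log2 scale), and it was chosen after the values had been seen. It was -0.45 in PBS 20-day replicate 4, -0.39 in PBS 1-day replicate 3 and -0.33 in IL-1β 1-day replicate 3, against -0.045 to 0.27 in the other 11 libraries. Mecom and Meis1, with 12.4 and 10.5 kb of merged exons, are among these 1222 long genes (above 9.74 kb). Each of the 3 libraries had the lowest Mecom, Hlf and Meis1 level of its group. PBS 20-day replicate 4 had the highest Lyl1 and Erg levels of all 14 libraries, and PBS 1-day replicate 3 the highest Lmo2 and Tal1 levels. Some of the results that rest on these libraries are also given without them.

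**Figure D1:**
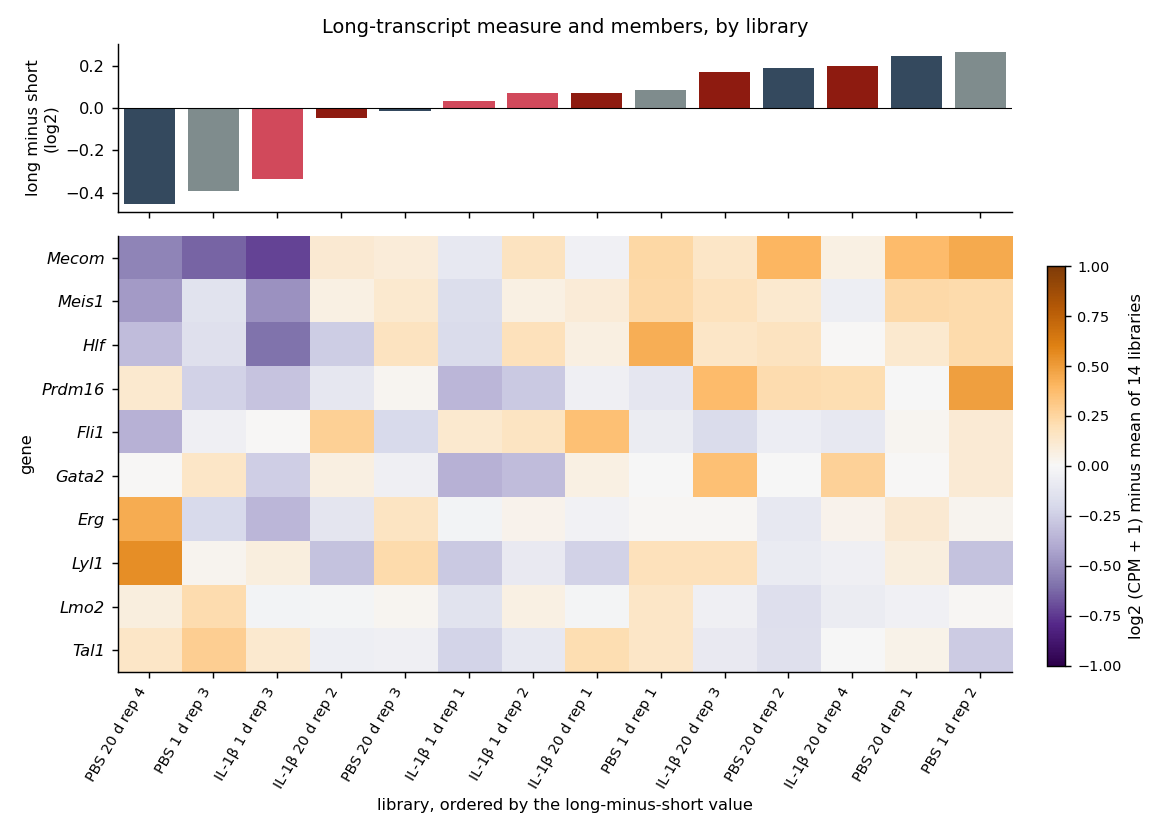
The upper panel plots, for each library, the median log2 deviation of the 1222 longest genes minus that of the 1222 shortest, coloured by group. The lower panel plots each factor's log2 (CPM + 1) minus its mean over the 14 libraries. The 3 libraries at the left, with values of -0.45 to -0.33, have low Mecom, Meis1 and Hlf.

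Promoter sequences are shown for Gata2, the member whose level changed, and for Mecom and Prdm16, whose windows share the longest stretch of letters. They are RefSeq windows on GRCm38.p6, from 250 bases before to 50 after a transcript's start, written along the gene's strand. RefSeq windows were matched for 8 members (13 windows), leaving out Fli1 and Lmo2. Gata2 has a window on the plus strand at chr6:88193641-88193940 and another at chr6:88198414-88198713, and its counts sum the transcripts of both starts. Capitals mark an E-box, the helix-loop-helix motif CANNTG, at positions 268 to 273 of the second window. The first window holds no E-box and has no capitals.
Gata2 upstream start: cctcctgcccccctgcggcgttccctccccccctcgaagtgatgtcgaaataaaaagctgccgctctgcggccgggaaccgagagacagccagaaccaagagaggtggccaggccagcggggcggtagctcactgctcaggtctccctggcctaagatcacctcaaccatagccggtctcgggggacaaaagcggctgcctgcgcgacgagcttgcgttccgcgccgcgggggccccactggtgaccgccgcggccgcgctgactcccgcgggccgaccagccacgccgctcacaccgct
Gata2 downstream start: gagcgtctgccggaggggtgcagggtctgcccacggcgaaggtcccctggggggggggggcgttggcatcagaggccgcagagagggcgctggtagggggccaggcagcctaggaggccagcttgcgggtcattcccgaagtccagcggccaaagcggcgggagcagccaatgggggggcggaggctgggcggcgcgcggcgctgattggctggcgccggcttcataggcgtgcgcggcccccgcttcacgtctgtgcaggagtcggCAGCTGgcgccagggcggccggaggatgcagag

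Mecom (chr3:30509710-30510009, minus strand) and Prdm16 (chr4:154636824-154637123, minus strand) share a run of 24 bases, shown in capitals. It lies at positions 277 to 300 of the Mecom window and 260 to 283 of the Prdm16 window, after the transcript start in both. The Mecom window ends at position 300, so the run may be longer than the 24 bases seen. Among 32851 windows, these 2 alone hold the run. Over the 72 pairs of windows from different members, the next longest shared run had 14 bases and the median had 9.
Mecom: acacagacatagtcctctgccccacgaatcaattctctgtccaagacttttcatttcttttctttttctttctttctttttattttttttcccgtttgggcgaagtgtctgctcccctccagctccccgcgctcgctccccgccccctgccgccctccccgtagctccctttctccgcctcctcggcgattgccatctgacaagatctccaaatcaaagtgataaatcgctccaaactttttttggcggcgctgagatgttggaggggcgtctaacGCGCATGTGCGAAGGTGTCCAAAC
Prdm16: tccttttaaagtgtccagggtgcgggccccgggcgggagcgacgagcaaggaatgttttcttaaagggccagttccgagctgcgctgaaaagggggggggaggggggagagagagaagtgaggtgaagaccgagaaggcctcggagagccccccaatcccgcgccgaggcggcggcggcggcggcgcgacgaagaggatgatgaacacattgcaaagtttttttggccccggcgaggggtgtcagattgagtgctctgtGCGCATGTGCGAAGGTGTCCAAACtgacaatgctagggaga

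A search for 5 short motifs covered both strands, and matches of different motifs were counted separately, including where they share bases. GATAA, the motif of the GATA factor family, was found in 4 of the 13 member windows and in 25.4% of all 32851 windows. CANNTG was found in 8 of 13 and in 72.3% of all windows. AGGAAG, an ETS motif, was found in 1 of 13 and in 35.4% of all windows. TGTGGT, a RUNX motif, was found in 1 of 13 and in 16.8% of all windows. TGACAG, a MEIS motif, was found in 2 of 13 and in 19.2% of all windows.

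Members were present at very different levels. Levels are compared between genes as CPM per kb of merged exons, over the 7 PBS libraries. Lmo2, the LIM-domain bridge of the complex, stood highest at 486 ± 41.1 CPM per kb (SD, n = 7), above 99.7% of 12218 genes. Gata2, the zinc finger factor, followed at 92.2 ± 4.49 CPM per kb (96.0% of genes). The ETS factor Fli1 had 63.7 ± 6.66 CPM per kb, and its relative Erg had 9.81 ± 1.49. Hlf and Meis1 had 44.6 ± 7.49 and 44.2 ± 7.10 CPM per kb. The helix-loop-helix pair Lyl1 and Tal1 had 15.9 ± 3.11 and 11.7 ± 1.56 CPM per kb. Mecom had 15.8 ± 4.39 CPM per kb, and Prdm16 stood lowest at 5.65 ± 0.977 (39.7% of genes). In this order the PBS ranges did not overlap between Lmo2 and Gata2, Gata2 and Fli1, Meis1 and Lyl1, or Erg and Prdm16. Ranges of the other neighbours overlapped (Fli1 and Hlf, Hlf and Meis1, Lyl1 and Mecom, Mecom and Tal1, Tal1 and Erg).

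**Figure D2:**
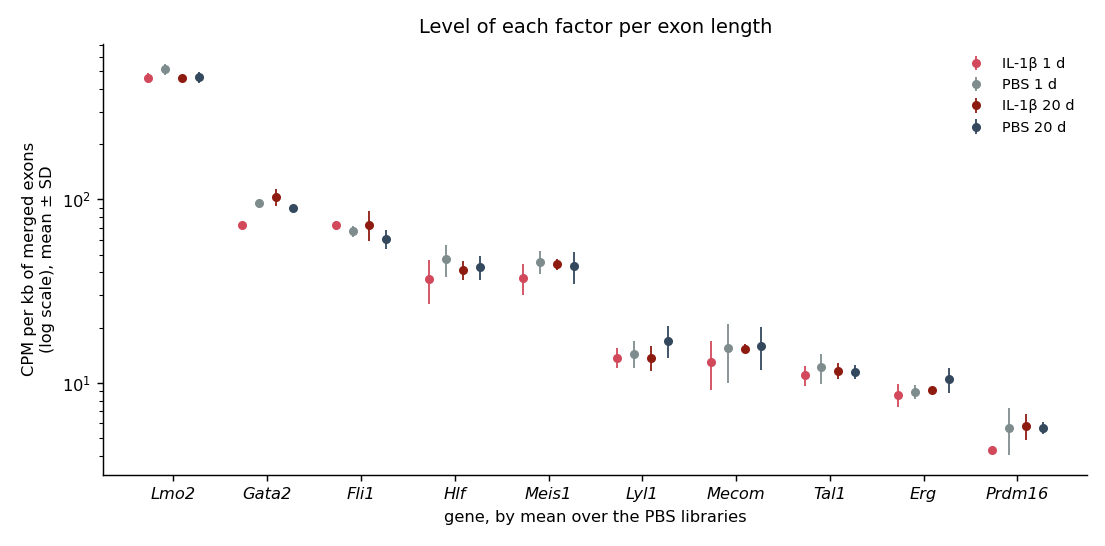
Mean level of each factor in CPM per kb of merged exons on a log axis, with SD bars, for IL-1β and PBS at 1 day (n = 3 each) and at 20 days (n = 4 each). Genes are ordered by their mean over the PBS libraries, from Lmo2 at 486 to Prdm16 at 5.65.

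Strand is not recorded by these libraries, and where antisense genes overlap a member their reads may be mixed. In the GRCm38 annotation, 8.51% of the exon bases of Meis1 (chromosome 11, 18879817 to 19018985, minus strand) overlap antisense Gm16140 and 9.77% overlap Gm37818 on the same strand. For Prdm16 (chromosome 4, 154316125 to 154636873, minus strand), 1.17% overlap B230104I21Rik. For Mecom (chromosome 3, 29951296 to 30548008, minus strand), 0.652% overlap Mecomos. Lyl1 (chromosome 8, 84701457 to 84704715, plus strand) shares 0.222% with Nfix. No exon bases of the other 6 members overlap another annotated gene. Of these, Tal1 lies on chromosome 4 (115056426 to 115071755, plus strand), Lmo2 on chromosome 2 (103957986 to 103981878, plus strand) and Hlf on chromosome 11 (90336536 to 90390895, minus strand). Erg lies on chromosome 16 (95359169 to 95586593, minus strand) and Fli1 on chromosome 9 (32422204 to 32542861, minus strand).

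The 1-day comparison addresses the acute response to IL-1β. Gata2 fell, and it was the only member whose change passed the test. The log2 fold change of IL-1β over PBS was negative for 9 of the 10 members, with a median of -0.20 against -0.015 over all genes tested. By edgeR's quasi-likelihood test with Benjamini-Hochberg adjustment over all genes, 1 of 10 members was called lower and 0 higher, where 4.35% of all genes were called (1.83% lower, 2.52% higher). Unadjusted p-values were under 0.05 for 4 members, Gata2, Hlf, Prdm16 and Meis1, all with lower levels. They were also under 0.05 for 2899 of all 15466 genes tested. In bulk RNA, fewer cells of a type and less RNA per cell cannot be told apart.

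Gata2 (chromosome 6, 88193891 to 88207032, plus strand) encodes a factor needed for stem cell emergence and maintenance. It had 376, 388 and 410.3 CPM in the 3 IL-1β libraries at 1 day, and 485, 523 and 539 CPM in the 3 PBS libraries. The groups did not overlap, and every IL-1β library was below every PBS library. The mean was 391.7 ± 17.2 CPM with IL-1β and 516 ± 28.0 CPM with PBS (SD, n = 3 each). The log2 fold change was -0.40 ± 0.086 (SE, edgeR adjusted p = 0.0170), which is 1.32-fold lower, and its size exceeded that of 70.6% of the genes tested. It was -0.39 within the 10k set and -0.40 within E060216. Without the 3 libraries low in long genes it was -0.41 (adjusted p = 0.0290).

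The Gata2 call rested on most of the 1-day libraries. It ended when any IL-1β 1-day library, or PBS 1-day replicate 2 or 3, was left out (edgeR adjusted p 0.0635 to 0.114), while the log2 fold change over all leave-outs stayed between -0.43 and -0.36. Without the naming set term the adjusted p was 0.0582, and with DESeq2 it was 0.000109. Of the 10 genes that mark the gate or stem cells, 1 was called lower at 1 day, where 1.83% of all genes were. None was called higher. The sum of the 10 genes was 1670.2 to 2290.1 CPM with IL-1β and 2152 to 3254 CPM with PBS. Cd48, a gene the gate selects against, was at 8.64 to 10.2 CPM with IL-1β and 3.78 to 6.01 CPM with PBS (1.02 ± 0.30, edgeR adjusted p = 0.0677). These groups did not overlap, where 17.7% of all genes tested had such groups. The part of the sorted cells' makeup in the Gata2 value was not tested.

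**Figure D3:**
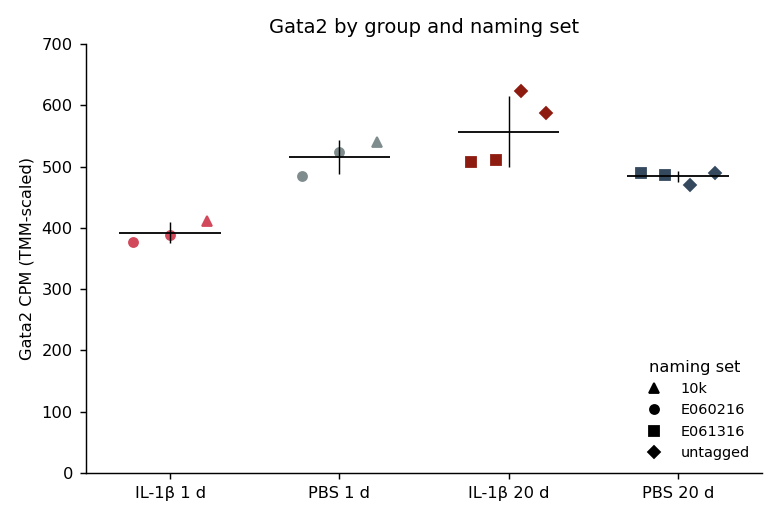
Gata2 level in CPM, scaled by TMM factors, in each library, with the group mean (horizontal line) and SD (vertical line); marker shapes show the naming sets. With IL-1β the libraries sit at 376 to 410.3 CPM at 1 day and 507 to 624 CPM at 20 days, and with PBS at 485 to 539 and 471 to 490.0 CPM.

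The factors that bind beside GATA2 did not pass the test at 1 day. Tal1, a helix-loop-helix factor of blood specification, had 42.9, 46.9 and 54.7 CPM with IL-1β, and 55.8, 41.8 and 61.5 CPM with PBS, so that the groups overlapped (log2 fold change -0.14 ± 0.13, edgeR adjusted p = 0.644). Lyl1, its closest relative, ranged from 21.7 to 27.7 CPM with IL-1β and from 21.2 to 29.9 CPM with PBS (-0.078 ± 0.15, adjusted p = 0.848). Lmo2 had 931, 1064 and 1003 CPM with IL-1β, and 1129, 1032 and 1186 CPM with PBS, and 1 IL-1β library lay above the lowest PBS library. Its log2 fold change was -0.16 ± 0.090 (edgeR adjusted p = 0.377).

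Prdm16, which encodes a PR-domain factor known for keeping stem cells in mice, was the other member whose groups did not overlap at 1 day. It had 38.7, 41.0 and 40.2 CPM with IL-1β, and 45.8, 69.8 and 42.1 CPM with PBS. The IL-1β libraries lay close together and PBS replicate 2 stood far above the rest, and the log2 fold change of -0.38 ± 0.16 was not called (edgeR adjusted p = 0.218). Groups did not overlap for 2 of 10 members, where 17.7% of all genes tested had groups that did not overlap. Within naming sets the Prdm16 value was -0.065 in 10k and -0.54 in E060216.

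Mecom, the relative of Prdm16, had 169, 204 and 109 CPM with IL-1β, and 214, 248 and 116 CPM with PBS. The lowest library of each group was its 10k library, and the groups overlapped. Within each naming set every IL-1β library was below every PBS library. The log2 fold change was -0.24 ± 0.17 (edgeR adjusted p = 0.500), and -0.32 (adjusted p = 0.152) without the 3 libraries low in long genes.

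Hlf, whose product marks and maintains stem cells, had 243, 313 and 182 CPM with IL-1β, and 373, 323 and 248 CPM with PBS. The groups overlapped, although within each naming set every IL-1β library was below every PBS library (-0.36 ± 0.14, edgeR adjusted p = 0.186). Meis1, the homeodomain cofactor, had 395, 464 and 317 CPM with IL-1β, and 522, 519 and 404 CPM with PBS. It too was lower in every IL-1β library than in the PBS libraries of its own set, with overlap between sets (-0.30 ± 0.13, edgeR adjusted p = 0.236). Gata2, Prdm16 and Mecom had this order within sets as well, and Fli1 had the reverse. The share of all genes with such an order within sets was not counted. Meis1 was called lower when PBS 20-day replicate 4 was left out (-0.29, edgeR adjusted p = 0.0403).

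The ETS factors were the members with the smallest differences at 1 day, apart from Lyl1. Erg, an ETS factor needed for stem cell maintenance, had 31.5, 32.9 and 25.0 CPM with IL-1β, and 32.5, 32.8 and 27.9 CPM with PBS (-0.066 ± 0.12, edgeR adjusted p = 0.836). Fli1, its relative, had 256, 264 and 236 CPM with IL-1β, and 223, 253 and 228 CPM with PBS, and was the only member with a positive value (0.10 ± 0.089, edgeR adjusted p = 0.616). Groups overlapped for both genes.

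**Figure D4:**
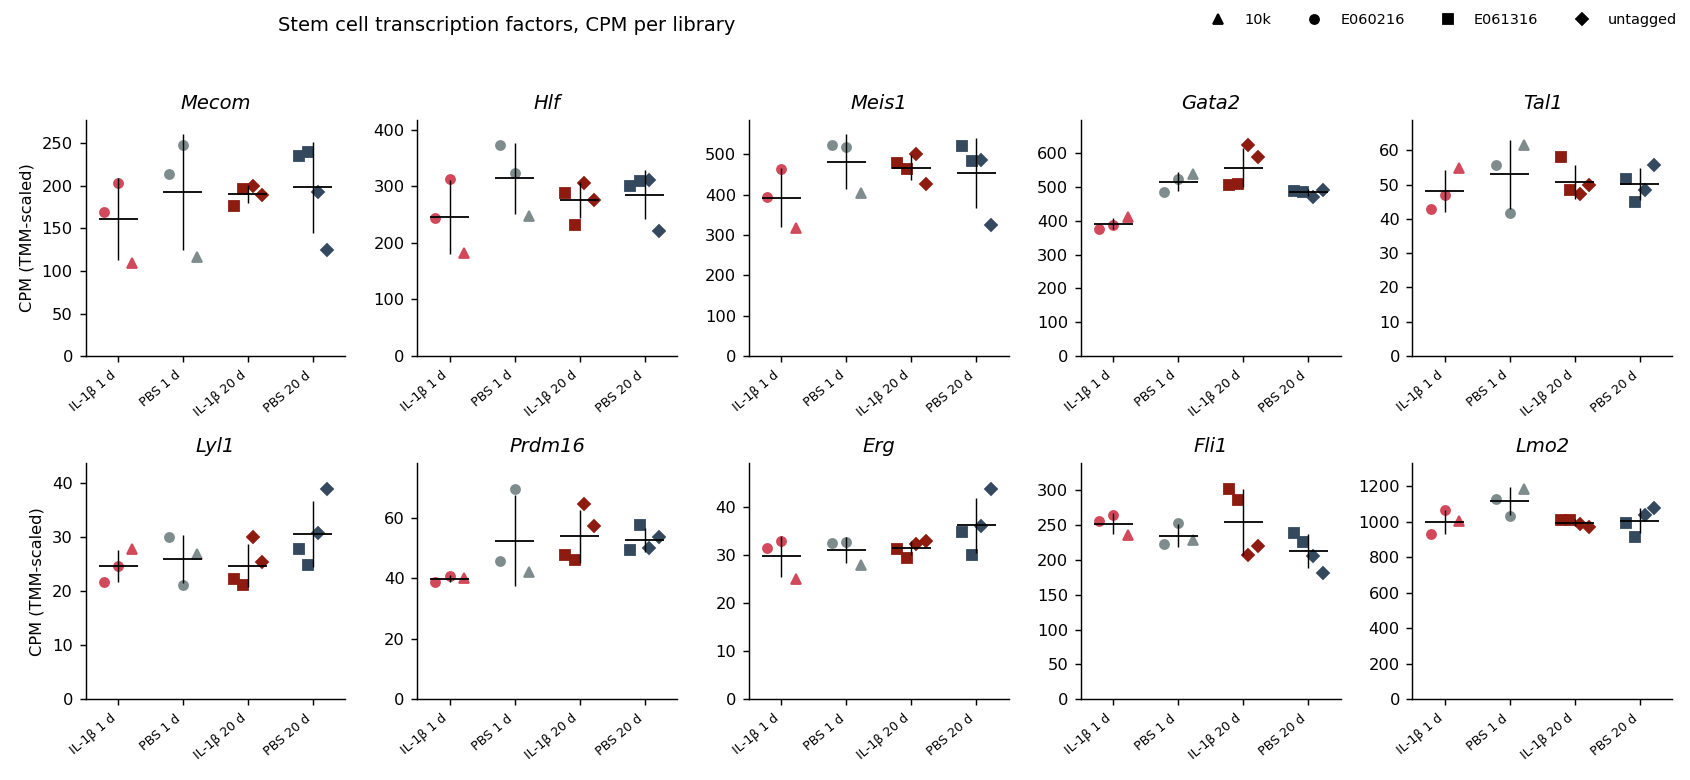
Level of each of the 10 factors in CPM, scaled by TMM factors, in each library (points, shaped by naming set), with the group mean (horizontal line) and SD (vertical line), each gene on its own axis from 0. IL-1β and PBS groups separate for Gata2 at both durations and for Prdm16 at 1 day, and overlap elsewhere.

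After 20 days, which addresses chronic exposure, no member passed the test. By edgeR's quasi-likelihood test, 0 of 10 members were called, where 7.46% of all genes were called (3.94% higher, 3.52% lower). Unadjusted p-values were under 0.05 for 3 members (Fli1, Gata2 and Lyl1) and for 3162 of all 15466 genes tested. DESeq2 called 1 member (Fli1), and 1809 genes in all. The log2 fold change was positive for 5 members and negative for 5, with a median of 0.0029 against -0.00031 over all genes tested.

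Gata2 had 507, 510.4, 624 and 588 CPM in the 4 IL-1β libraries at 20 days, and 489.8, 486, 471 and 490.0 CPM in the 4 PBS libraries. Every IL-1β library was above every PBS library, by a small margin for the 2 libraries of E061316. The mean was 557 ± 57.9 CPM with IL-1β and 484 ± 9.18 CPM with PBS (SD, n = 4 each). The log2 fold change was 0.20 ± 0.075 (edgeR adjusted p = 0.140). It was 0.060 within E061316 (adjusted p = 0.762) and 0.33 within the untagged set (adjusted p = 0.0166), each from 2 libraries a group with the spread estimated over all 14, and the difference between the sets was not tested. Groups did not overlap for 1 of 10 members, where 10.4% of all genes tested had such groups.

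The library with the highest Gata2, IL-1β 20-day replicate 3, is also the one with the neutrophil RNA. Without it the Gata2 log2 fold change was 0.14 (edgeR adjusted p = 0.388). Other cells of marrow that use Gata2 are mast cells, basophils, and megakaryocyte and erythroid progenitors. The summed level of the 6 mast cell and basophil genes in the table was 27.6 CPM in that library. It was 8.59 to 9.72 CPM in the other 3 IL-1β libraries, and 4.55 to 7.91 CPM in the PBS libraries at 20 days. At 1 day it was 5.20 to 7.66 CPM with IL-1β and 5.16 to 8.68 CPM with PBS. The basophil genes Mcpt8 and Prss34 were at 6.03 and 5.25 CPM in that library and at no more than 0.218 and 0.199 CPM in any other.

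Some genes of 2 other lineages that use Gata2 differed between IL-1β and PBS, not all in the same direction. The sum of 7 megakaryocyte genes was 879 to 1521 CPM with IL-1β and 653 to 785 CPM with PBS at 20 days. At 1 day it was 572 to 952 CPM with IL-1β and 642 to 837 CPM with PBS, so the groups overlapped. Of these 7 genes, 4 were called higher at 20 days, where 3.94% of all genes were, and 1 was called lower at 1 day, where 1.83% of all genes were. The sum of 10 erythroid genes was 172 to 191 CPM with IL-1β and 47.6 to 73.5 CPM with PBS at 20 days, and 64.4 to 87.4 CPM with IL-1β and 42.7 to 62.4 CPM with PBS at 1 day. Of 6 erythroid genes tested, 2 were called higher and 1 lower at 20 days, against 3.94% and 3.52% of all genes. At 1 day 1 was called higher, where 2.52% of all genes were. Most of the difference in the erythroid sum was in the globin gene Hbb-bt, which averaged 116 CPM with IL-1β and 13.4 CPM with PBS at 20 days. Its near-identical copy Hbb-bs averaged 0.823 CPM with IL-1β and 2.83 CPM with PBS, and the division of reads between the copies is uncertain. The globin gene Hba-a1 averaged 0.170 CPM with IL-1β and 1.26 CPM with PBS. Of 5 endothelial genes tested, Tie1 was called lower at both durations and Sox18 at 20 days. Over all genes, 1.83% were called lower at 1 day and 3.52% at 20 days. The part of these lineages in the Gata2 values was not tested.

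Some genes of the gate also differed between IL-1β and PBS at 20 days. Of the 10 gate and stem cell genes, 4 were called higher and 1 lower, against 3.94% and 3.52% of all genes. Their sum was 2459.7 to 2602 CPM with IL-1β and 2068 to 2967 CPM with PBS. Slamf1 was at 89.5 to 116 CPM with IL-1β and 39.4 to 68.9 CPM with PBS (0.81 ± 0.12, edgeR adjusted p = 0.000925). Flt3 was at 78.7 to 139 CPM with IL-1β and 40.7 to 60.4 CPM with PBS (1.02 ± 0.15, edgeR adjusted p = 0.000768). Cd48 was at 3.40 to 9.24 CPM with IL-1β and 2.78 to 3.63 CPM with PBS (1.10 ± 0.26, edgeR adjusted p = 0.0197). Groups did not overlap for Slamf1 and Flt3, where 10.4% of all genes tested had such groups. Both genes also differed between durations by edgeR (0.82 ± 0.18, adjusted p = 0.0383 for Slamf1, and 1.18 ± 0.23, adjusted p = 0.0231 for Flt3). Over all genes, 2.14% were called between durations. The calls of these gate genes are given from the main fit alone. The part of the gate genes in the Gata2 values was likewise not tested.

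Among the other members at 20 days, Fli1 came closest to the threshold. It had 302, 286, 208 and 220.2 CPM with IL-1β, and 238, 226, 205 and 182 CPM with PBS. The E061316 libraries stood above the untagged ones in both groups, and within each set the IL-1β libraries were above the PBS libraries (0.25 ± 0.077, edgeR adjusted p = 0.0718). Gata2 had this order within sets as well, and Lyl1 had the reverse. The share of all genes with such an order within sets was not counted. Fli1 was called higher with DESeq2 (adjusted p = 0.0131) and without PBS 20-day replicate 3 (edgeR adjusted p = 0.0397). Erg had 31.3, 29.5, 32.4 and 32.9 CPM with IL-1β, and 34.9, 30.1, 36.1 and 43.9 CPM with PBS (-0.19 ± 0.10, edgeR adjusted p = 0.313).

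Lyl1 had 22.3, 21.2, 30.0 and 25.4 CPM with IL-1β at 20 days, and 27.8, 24.8, 30.8 and 39.0 CPM with PBS. The highest PBS library was replicate 4, which is low in long genes. The log2 fold change was -0.30 ± 0.13 (edgeR adjusted p = 0.198), and -0.22 (adjusted p = 0.404) without the 3 libraries low in long genes. Tal1 ranged from 47.1 to 58.1 CPM with IL-1β and from 45.0 to 55.6 CPM with PBS (0.020 ± 0.11, adjusted p = 0.954). Lmo2 ranged from 972 to 1009.8 CPM with IL-1β and from 916 to 1077 CPM with PBS (-0.014 ± 0.078, adjusted p = 0.955).

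Mecom had 177, 197, 200.4 and 189 CPM with IL-1β at 20 days, and 236, 239.6, 193 and 125 CPM with PBS. The PBS libraries fall on both sides of the IL-1β libraries. The fold change on the log2 scale was -0.029 ± 0.14 (edgeR adjusted p = 0.950) with all libraries, and -0.20 (adjusted p = 0.279) without the 3 libraries low in long genes. It was -0.35 within E061316 and 0.29 within the untagged set, which holds the low PBS library. Prdm16 ranged from 46.0 to 64.6 CPM with IL-1β and from 49.3 to 57.8 CPM with PBS (0.019 ± 0.14, adjusted p = 0.967).

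Hlf had 289, 232, 305 and 277 CPM with IL-1β at 20 days, and 301, 309.7, 311 and 221 CPM with PBS (-0.050 ± 0.12, edgeR adjusted p = 0.889). PBS replicates 1 to 3 lay within 301 to 311 CPM and replicate 4 lay far below them. Meis1 had 478, 463, 502 and 427 CPM with IL-1β, and 521, 483, 486 and 325 CPM with PBS, with the same PBS library lowest (0.050 ± 0.12, adjusted p = 0.880). Without the 3 libraries low in long genes the values were -0.17 for Hlf (adjusted p = 0.392) and -0.077 for Meis1 (adjusted p = 0.656).

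**Figure D5:**
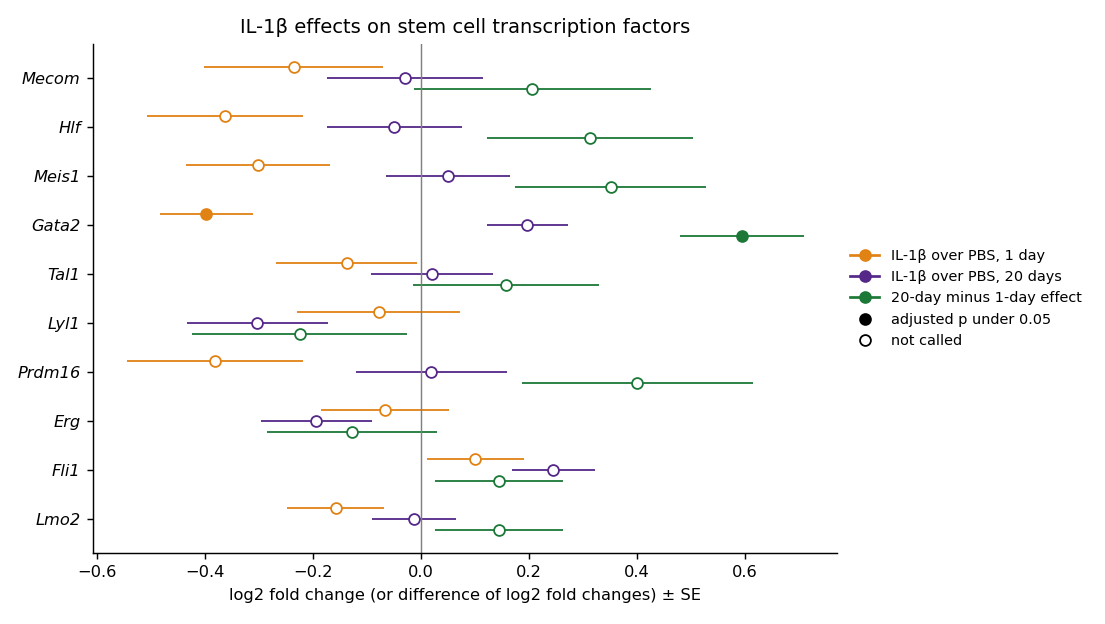
Log2 fold change of IL-1β over PBS at 1 day and at 20 days, and the 20-day minus the 1-day log2 fold change, for each factor, as edgeR estimates with approximate SE bars. Filled points have an adjusted p under 0.05: only Gata2 is filled, at -0.40 for 1 day and 0.59 for the difference.

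The test of the difference between the durations addresses whether the chronic response is that of 1 day. No naming set holds both durations, so a difference between durations cannot be told apart from one between naming sets. Gata2 differed, with a 20-day minus 1-day log2 fold change of 0.59 ± 0.11 (edgeR quasi-likelihood test, adjusted p = 0.0239), a ratio of 1.51. It was the only called member (1 of 10 higher, 0 lower), where 2.14% of all genes were called (1.15% higher, 0.989% lower). The difference was positive for 8 of the 10 members, with a median of 0.18 against 0.015 over all genes tested. The next largest differences, none of them called, were those of Prdm16 (0.40 ± 0.21, adjusted p = 0.342), Meis1 (0.35 ± 0.18, adjusted p = 0.309) and Hlf (0.31 ± 0.19, adjusted p = 0.418). Lyl1 (-0.22 ± 0.20) and Erg (-0.13 ± 0.16) had negative differences.

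For Gata2 the difference was 0.60 (edgeR adjusted p = 0.0283) without the 3 libraries low in long genes. The call ended without IL-1β 1-day replicate 1 or 2, PBS 1-day replicate 1 or 2, or IL-1β 20-day replicate 4 (adjusted p 0.0519 to 0.104), and without the naming set term (0.0939). The log2 difference stayed between 0.54 and 0.62 in all leave-outs.

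Between the PBS groups, 20 days against 1 day, 0 of 10 members were called by edgeR, where 0% of all genes were called. No member had an unadjusted p under 0.05, although 675 genes did, and DESeq2 called 10 genes and no member. The largest log2 differences were those of Lyl1 (0.24 ± 0.18), Erg (0.22 ± 0.14) and Lmo2 (-0.15 ± 0.090). Gata2 averaged 484 ± 9.18 CPM with PBS at 20 days (SD, n = 4) and 516 ± 28.0 CPM with PBS at 1 day (SD, n = 3), a log2 difference of -0.091 ± 0.093. Duration and naming set cannot be told apart in this comparison.

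The patterns of members over the 14 libraries were compared by the root mean square distance between their log2 CPM, each gene centred within naming sets. The nearest members were Lmo2 and Tal1 (0.0856), Hlf and Meis1 (0.0909), Erg and Lmo2 (0.0956), and Mecom and Meis1 (0.112). The distance is not scaled, so genes that vary little are near each other whether or not they vary together. Among all 15466 genes, the 3 nearest to Gata2 were Fam98c (0.0540), Pip5k1c, a lipid kinase gene (0.0600), and Sox4, a transcription factor gene of progenitors (0.0619), where the root mean square of Gata2 itself was 0.161. At 1 day their log2 fold changes were -0.36, -0.33 and -0.31, none of them called (edgeR adjusted p = 0.123, 0.0886 and 0.111). These genes were chosen by nearness over the same libraries. Fold changes near that of Gata2 therefore follow from the choice and are not a separate result.

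Partners in the complexes of these factors were followed as a list of 21 genes, all of them tested. At 1 day 1 was higher and 1 lower by edgeR, 2 of 21 where 4.35% of all genes were called. Cbfa2t3, which encodes the corepressor ETO2 of the TAL1 complex, had 145, 161 and 152 CPM with IL-1β, and 215, 190.2 and 204 CPM with PBS. The groups did not overlap (-0.41 ± 0.11, adjusted p = 0.0434), where 17.7% of all genes tested had such groups. Ssbp4, of the family that stabilises LDB1, had 106, 101 and 119.7 CPM with IL-1β, and 74.6, 71.2 and 97.9 CPM with PBS (0.43 ± 0.11, adjusted p = 0.0445). The Cbfa2t3 call ended in 9 of 14 leave-outs, among them each 1-day library, and the Ssbp4 call in 8, likewise. Both calls also ended without the naming set term (edgeR adjusted p = 0.161 for Cbfa2t3 and 0.218 for Ssbp4).

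At 20 days 2 partners were higher and 1 lower by edgeR, 3 of 21 where 7.46% of all genes were called. Id1, an inhibitor of helix-loop-helix factors, had 4.24, 6.04, 11.9 and 15.2 CPM with IL-1β, and 3.09, 4.72, 5.71 and 5.72 CPM with PBS (0.84 ± 0.21, adjusted p = 0.0235). Ctbp2, which encodes a corepressor bound by MECOM and PRDM16, was lower (-0.41 ± 0.11, adjusted p = 0.0392), with 32.7 to 36.0 CPM with IL-1β and 40.3 to 57.4 CPM with PBS. Leave-outs ended the calls of Id1 and Ctbp2 in 6 of 14 cases each, and both ended without the naming set term (edgeR adjusted p = 0.792 for Id1 and 0.0817 for Ctbp2). No partner differed between the durations, and the smallest p was that of Ssbp4 (-0.45 ± 0.15, adjusted p = 0.125). The median log2 fold change of the list was 0.050 at 1 day and 0.021 at 20 days.

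Of 18 relatives from the same families, 16 were tested. None was called at 1 day, where the smallest p was that of Meis3 (-0.93 ± 0.32, edgeR adjusted p = 0.122). At 20 days 2 were higher and 1 lower, 3 of 16 where 7.46% of all genes were called. Gata1, the GATA factor of the erythroid and megakaryocyte lineages, had 97.4, 86.8, 51.1 and 95.5 CPM with IL-1β, and 48.5, 61.2, 43.9 and 49.98 CPM with PBS. IL-1β replicate 3 lay among the PBS libraries and the other 3 above them (0.70 ± 0.16, adjusted p = 0.0177). Ets1, a relative of Fli1 and Erg, had 43.4, 35.8, 30.3 and 39.4 CPM with IL-1β, and 26.6, 26.0, 23.9 and 14.9 CPM with PBS (0.72 ± 0.18, adjusted p = 0.0247). The calls of Gata1 and Ets1 each ended in 4 of 14 leave-outs, and without the naming set term (edgeR adjusted p = 0.0674 for Gata1 and 0.0967 for Ets1). None was called between durations (smallest p Prdm2, 0.69 ± 0.22, adjusted p = 0.109). The list's medians were -0.17 at 1 day and 0.098 at 20 days.

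Of 23 other regulators of stem cells, 1 was lower at 1 day, and 5 were higher and 2 lower at 20 days, by edgeR. That is 1 of 23 where 4.35% of all genes were called, and 7 of 23 where 7.46% were. Egr1, an immediate early factor, was lower at 1 day (-1.07 ± 0.22, adjusted p = 0.0122), although its groups overlapped, with 118, 112 and 533 CPM with IL-1β and 162, 328 and 1082 CPM with PBS. At 20 days Tcf15, which encodes a helix-loop-helix factor linked to stem cell quiescence, had 11.8 to 13.6 CPM with IL-1β and 21.0 to 37.5 CPM with PBS (-1.08 ± 0.15, adjusted p = 0.000490). Gfi1, a repressor gene, had 17.0 to 37.2 CPM with IL-1β and 9.49 to 13.3 CPM with PBS (1.20 ± 0.23, adjusted p = 0.00682). Zbtb16, which encodes the zinc finger factor PLZF, had 22.5 to 39.8 CPM with IL-1β and 14.5 to 21.4 CPM with PBS (0.90 ± 0.16, adjusted p = 0.00361). Nkx2-3, a homeobox gene, was higher too (0.45 ± 0.10, adjusted p = 0.0134). Groups did not overlap for these 4 genes, where 10.4% of all genes tested had such groups. Zbtb16 also differed between durations (1.10 ± 0.25, adjusted p = 0.0397), a call that ended in 10 of 14 leave-outs. The Egr1 call at 1 day ended in 4 and the Nkx2-3 call in 2, while those of Tcf15, Gfi1 and Zbtb16 at 20 days were kept in all 14. Without the naming set term the calls of Egr1 (edgeR adjusted p = 0.643), Nkx2-3 (0.0515) and Zbtb16 between durations (0.143) ended, and those of Tcf15, Gfi1 and Zbtb16 at 20 days were kept. The median log2 fold change of these regulators was -0.14 at 1 day and 0.14 at 20 days.

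Of 16 genes reported as targets of these factors, 1 was lower at 1 day, and 2 were higher and 1 lower at 20 days, by edgeR. That is 1 of 16 where 4.35% of all genes were called, and 3 of 16 where 7.46% were. Tek, which encodes the angiopoietin receptor TIE2, was higher at 20 days, with 127 to 149.9 CPM with IL-1β and 64.6 to 122 CPM with PBS (0.57 ± 0.13, adjusted p = 0.0144), a call that ended without IL-1β 20-day replicate 4 (0.0610). It also ended in the fit with no term for naming sets (0.116). None was called between durations (smallest p Angpt1, 0.47 ± 0.21, adjusted p = 0.251). The medians of the targets were -0.13 at 1 day and 0.11 at 20 days.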

How the data were processed

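The deposited data are counts, in a single table by gene symbol for 14 libraries, all whole numbers, with no sign of scaling. Per the labels' protocols, SMARTer cDNA was made into Nextera XT libraries and read from a single end, without molecular identifiers. Counting error is therefore that of reads, not of molecules. The SEs and SDs given here also hold the spread between libraries. Per the submitters' processing notes, the build was GRCm38.p4 and the tools, without stated roles, were DESeq2 1.12.3, Cuffdiff, Cufflinks 2.0.2, HTSeq 0.6.1, STAR 2.4.2a and Trimmomatic 0.32. Neither the gene annotation nor a strand option for counting is given in the sources used here. Totals were 21654896 to 29441947 counts, and over 18 pairs of replicates chi-square per degree of freedom was 11.2 to 81.4, so no pair was a repeated library.

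The test was edgeR 4.0.16 (R 4.3.3) on TMM-normalised counts: the two-sided quasi-likelihood F-test with robust fitting, after filterByExpr at a minimum count of 10. Adjustment was by Benjamini-Hochberg over 15466 genes, with a threshold of 0.05. A fit of all 14 libraries held a naming set term and an IL-1β effect per duration (8 residual degrees of freedom, biological coefficient of variation 0.198). For PBS at 20 days against 1 day the fit had a mean per group (10 residual degrees of freedom, 0.257). SEs are approximate, obtained from each log2 fold change and its F statistic. CPM is scaled by TMM factors, except sums over lists, which use library totals. The code was tested on simulated data. Exon lengths and coordinates are from GENCODE M21 on GRCm38, and promoter windows from RefSeq on GRCm38.p6. Levels per kb were ranked among genes with a mean of at least 1 CPM.

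The members and the wider lists were chosen with earlier results of these data known. All members are named in every comparison. Of each wider list, up to 4 called genes with the smallest p are named, or the gene with the smallest p where none was called, and for each called member the 3 nearest genes. Some genes that this rule names are not reported here, although the counts include them. Alternatives were RLE and upper-quartile factors, no filter, DESeq2 1.42.0, each library left out, no naming set term, a replicate block, 1 duration or 1 naming set alone, and 2 chosen after seeing the data: leaving out the 3 libraries low in long genes, and their long-minus-short value as a covariate. Shared replicate numbers were not taken as pairs.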

Additional observations from a re-analysis of the deposited data

Results flagged for a closer look

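In PBS 20-day replicate 4, Hlf was at 221 CPM, far from the 3 other libraries of its group (301, 309.7 and 311 CPM) by Dixon's criterion. Of the 20 groups of 4 libraries examined over the 10 members, this was the only flag, and chance flags about 1 in 20. The same library had the lowest long-minus-short value of all 14 (-0.45).

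For Gata2, the effect of IL-1β differed between the durations by the test of the difference itself (20-day minus 1-day log2 fold change 0.59 ± 0.11, edgeR adjusted p = 0.0239). All 3 IL-1β libraries were below all 3 PBS libraries at 1 day, and all 4 were above all 4 at 20 days. Groups did not overlap for 17.7% of all genes tested at 1 day and for 10.4% at 20 days. The 20-day change by itself was not called (0.20 ± 0.075, edgeR adjusted p = 0.140), and it was 0.060 within E061316. For the difference between durations, the edgeR adjusted p over the leave-outs ran from 0.0173 to 0.104. Duration and naming set cannot be told apart in this difference.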

How the results depend on the processing

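Of the alternatives for the 10 members, 845 values kept their direction and their side of the threshold, 15 lost a call, 5 gained a call and 45 changed sign, and the cause was not tested. All 15 lost calls were those of Gata2, which kept its direction throughout. Leaving out 1 library at a time gave 0 to 2 members called at 1 day, 0 to 1 at 20 days and 0 to 1 between durations. Over all genes it gave 228 to 1244, 648 to 1156 and 34 to 604 calls, with 0 calls between PBS groups. Without the naming set term, 0 members were called at 1 day and 0 between durations (290, 525 and 23 genes at 1 day, at 20 days and between durations). The replicate block likewise called 0 and 0 members (383, 672 and 23 genes). For Gata2 under the replicate block the adjusted p was 0.0785 at 1 day and 0.102 between durations. Among the named partners, relatives, regulators and targets, the block ended the calls of Cbfa2t3 (0.0837), Ssbp4 (0.104), Ets1 (0.0670), Ctbp2 (0.0967) and, between durations, Zbtb16 (0.0962). Results of the alternatives are not given for the calls of Slamf1, Flt3, Cd48, Tie1 and Sox18. Deviations of same-numbered libraries from their group means correlated at -0.030 to 0.27. Libraries with different numbers were not compared, so this cannot decide whether the numbers pair the libraries. DESeq2 called 1398, 1809, 1182 and, between PBS groups, 10 genes, and 1 member at 20 days. Only the 1-day libraries gave 1200 genes, and only the 20-day libraries 750. An IL-1β effect per naming set, with the spread estimated over all 14 libraries, gave 1152 genes (E060216), 444 genes (E061316), and 1979 genes and 1 member (untagged). The 10k set has 1 library a group, assumed to vary like the others, and its 2 genes and 0 members say nothing about stability. Without the 3 libraries low in long genes, 1069 genes were called at 1 day and 608 between durations. With their measure as a covariate these were 1291 and 660, and 1 member (Fli1) was called at 20 days. Upper-quartile factors moved the split of 1-day calls from 389 higher and 283 lower to 344 and 399. Signs changed for members near 0. Between PBS groups these were Prdm16 (RLE -0.0025, no filter -0.0033, DESeq2 -0.0026, without the 3 libraries -0.15, leave-outs -0.12 to 0.26), Mecom (without the 3 libraries -0.062, leave-outs -0.21 to 0.26), Tal1 (leave-outs -0.22 to 0.059) and Meis1 (leave-outs -0.19 to 0.036). At 1 day Lyl1 changed sign (10k 0.047, leave-outs -0.19 to 0.094). At 20 days Lmo2 did (no filter 0.0010, E061316 0.081, without the 3 libraries 0.024, covariate 0.014, leave-outs -0.055 to 0.016), and Meis1 (E061316 -0.096, without the 3 libraries -0.077, covariate -0.013, leave-outs -0.085 to 0.14). Prdm16 (E061316 -0.19, covariate -0.047, leave-outs -0.066 to 0.11), Hlf (untagged 0.13, leave-outs -0.18 to 0.042), Mecom (untagged 0.29, leave-outs -0.21 to 0.059) and Tal1 (untagged -0.10, leave-outs -0.073 to 0.084) did so too at 20 days. Sequencing depth did not limit these members, which had at least 540 counts in every library.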
